A study of Macaca mulatta with 27 samples.

Results

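The comparison described here sets rhesus macaque embryonic stem cells (ESCs) converted with the TL-CDK8/19i protocol against the same line converted with E-NHSM, over all genes. It takes the 3 libraries of each protocol, 6 of the 27 libraries of the series, and was chosen because both protocols leave transcripts of POU5F1, the gene of the pluripotency factor OCT4, in their cells. All 6 libraries came from LyonES-tGFP-(S3), 1 clonal rhesus ESC line that carries a tauGFP reporter under the CAG promoter and a lentiviral STAT3-ERT2 transgene, a STAT3 that works only when tamoxifen is present. The TL-CDK8/19i cells, spelled TL-CDK8i in the sample titles, were grown with tamoxifen, so that STAT3-ERT2 was active, with leukemia inhibitory factor (LIF) and with CNIO-47799, an inhibitor of the kinases CDK8 and CDK19 that replaced the MEK and GSK3beta inhibitors of the parent TL2i protocol. The E-NHSM cells were grown in a version of naive human stem cell medium, without tamoxifen, so that STAT3-ERT2 was inactive. The protocols therefore differed in the medium, in STAT3-ERT2 activity and in the kinase inhibitor together, and the contributions of these cannot be told apart. Both converted populations were passaged as single cells, whereas the unconverted primed cells of the same clone, 6 libraries that serve below as a reference level without a test, were passaged in clumps.

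Pluripotent cells of the naive kind resemble the epiblast before implantation, and primed cells resemble it after implantation. In mouse cells the naive kind is held by LIF acting through STAT3 together with block of MEK-ERK signalling, and inhibition of CDK8 and CDK19, the kinases of the Mediator complex that links enhancers to RNA polymerase II, has been used for the same purpose. Loss of the epithelial cadherin CDH1 in favour of CDH2, with vimentin, fibronectin and collagens, is the textbook description of an epithelial to mesenchymal change.

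The TL-CDK8/19i libraries held 8929940 to 11034150 counted reads and the E-NHSM libraries 17555947 to 20760914, so that depth and protocol cannot be told apart. In spite of the lower depth, 15127 to 15322 genes had a count in TL-CDK8/19i and 13688 to 14054 in E-NHSM, and with every library thinned to 8929940 reads the ranges were 15063 to 15322 and 13639 to 13996. Low counts were spread unequally between the protocols. Between 988 and 1081 genes held 1 to 3 counts in a TL-CDK8/19i library, but only 112 to 196 in an E-NHSM library and 154 to 326 in a primed library. Primed values at or near 0 thus come from libraries with a like scarcity of low counts. In addition, 494 genes had 10 or more counts in 1 E-NHSM library and 0 in the other 2, against 6 genes in TL-CDK8/19i. With the E-NHSM libraries thinned to 8929940 reads that number was 155. The fold bounds given below for genes at 0 cover counting error only and take no account of this pattern. Its part in the results on low genes was examined only by thinning the E-NHSM counts and by requiring 10 counts in every library. Thinning to the depth of TL-CDK8/19i kept 7908 of the 8055 calls still tested. Medians with 10 counts in every library stand beside the lists that moved or in the section on processing. No label says that the 3 libraries of a protocol came from separate cultures, so p-values measure the spread between these libraries. In these bulk samples, fewer cells with a transcript and less of it per cell cannot be told apart.

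Of 13651 genes tested with edgeR's quasi-likelihood test, 8156 (59.7%) passed an adjusted p of 0.05, 4199 higher in TL-CDK8/19i (30.8%) and 3957 lower (29%). The 3 and 3 libraries did not overlap for 67.3% of genes, with TL-CDK8/19i above for 34.1% and below for 33.2%. Most genes thus differed between the protocols, and the counts of list members below are to be read against these shares. The larger differences lay mostly on the TL-CDK8/19i side: 2445 genes were called and at least 2-fold higher (17.9%) and 1364 at least 2-fold lower (9.99%), and for 4-fold the numbers were 1389 and 379. Over genes with at least 10 counts in all 6 libraries, a limit chosen for this purpose after the data were seen, 1802 of 11766 were at least 2-fold higher and 1068 at least 2-fold lower. The median log2 fold change of all tested genes was 0.0086. Throughout, levels are CPM, counts scaled to library size, given in the order of replicates 1, 2 and 3, a log2 fold change is a fitted difference of TL-CDK8/19i minus E-NHSM with its standard error, and an adjusted p is that of edgeR's quasi-likelihood test with Benjamini-Hochberg adjustment over all 13651 genes.

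**Figure D1:**
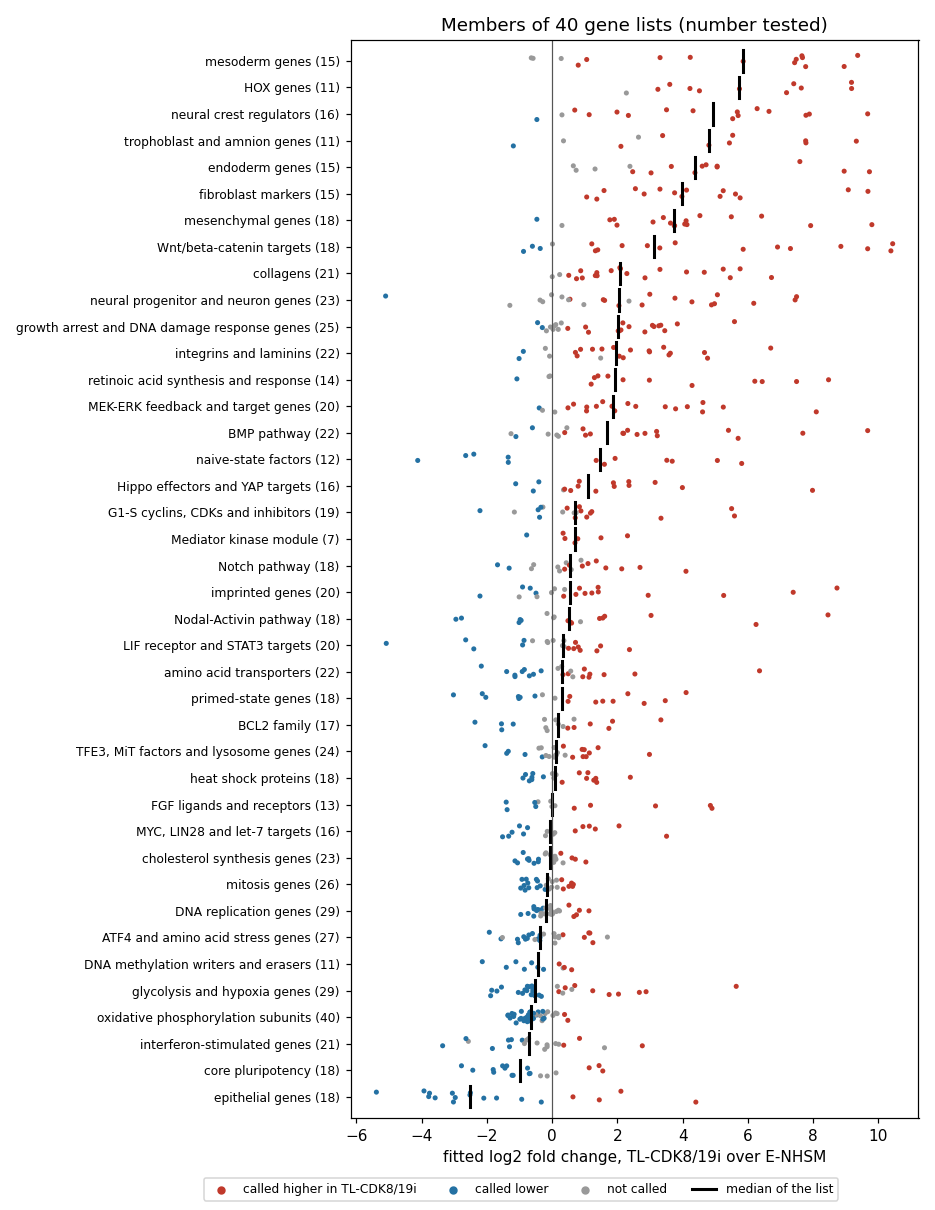
Fitted log2 fold change of TL-CDK8/19i over E-NHSM (horizontal axis) for the tested members of 40 gene lists, 1 row a list, ordered by the list median (black bar), with the number of tested members in brackets. Each point is a gene, red where called higher in TL-CDK8/19i, blue where called lower and grey where not called. The epithelial list has a median of -2.51 and the mesenchymal list one of 3.75.

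Genes of the pluripotency network were mostly lower in TL-CDK8/19i than in E-NHSM, with their transcripts present in both. Among 18 tested core pluripotency genes, 12 were called lower and 3 higher, with a median log2 fold change of -0.98. POU5F1 measured 468, 402 and 581 CPM in TL-CDK8/19i and 1325, 1372 and 1319 CPM in E-NHSM. The groups did not overlap (log2 fold change -1.45 ± 0.11, adjusted p = 1.75e-07), and the primed libraries, at 1077 to 1278 CPM, also lay above every TL-CDK8/19i library. SOX2, the partner of OCT4 on many enhancers, was at 106, 102 and 122 CPM against 376, 402 and 399 (log2 fold change -1.81 ± 0.088, adjusted p = 2.88e-09). NANOG, another factor of that core, gave 70.7, 49.3 and 93.7 CPM in TL-CDK8/19i and 140.1, 172 and 186 in E-NHSM (log2 fold change -1.20 ± 0.18, adjusted p = 9.14e-05). All 3 factors were thus lower in each TL-CDK8/19i library than in any E-NHSM library.

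Among the other lower members of that list, TDGF1 and L1TD1 differed by more than POU5F1, SOX2 and NANOG. TDGF1, the Nodal co-receptor CRIPTO, was at 21.1, 13.3 and 32.6 CPM against 159, 149 and 163 (log2 fold change -2.78 ± 0.22, adjusted p = 2.26e-07). L1TD1, an RNA-binding protein of pluripotent cells, was at 139.9, 103 and 145 CPM against 670.4, 783 and 672 (log2 fold change -2.43 ± 0.12, adjusted p = 3.52e-09), and its primed range of 1113 to 1354 CPM lay above both. SALL4 (-1.39 ± 0.083), ZFP42 (-1.52 ± 0.15), the let-7 antagonists LIN28A (-1.23 ± 0.10) and LIN28B (-0.76 ± 0.075), PODXL (-0.70 ± 0.077), DPPA4 (-0.68 ± 0.10) and the telomerase gene TERT (-1.79 ± 0.53) were lower too. The call of TERT was lost in a fit over all 8 groups of the series (adjusted p = 0.066). In the other direction went DPPA2 (log2 fold change 1.44 ± 0.18, adjusted p = 1.41e-05), GDF3 (1.55 ± 0.26) and FOXD3 (1.13 ± 0.28). PRDM14, a repressor of differentiation genes, did not pass the test, with 114, 79 and 104 CPM against 86.9, 99.4 and 90.9 (log2 fold change 0.12 ± 0.12, adjusted p = 0.436), and both protocols lay below its primed range of 199.6 to 346 CPM.

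Factors named for the naive state did not move together. Of 12 tested members of that list, 7 were higher in TL-CDK8/19i and 5 lower, with a median log2 fold change of 1.47, but 7 more members had too few counts to be tested, and with no filter on low counts the median was -1.35. KLF5, a Krüppel-like factor of naive cells that many epithelia also express, was at 159, 241 and 204 CPM in TL-CDK8/19i and 6.47, 5.99 and 5.81 in E-NHSM (log2 fold change 5.06 ± 0.16, adjusted p = 6.95e-11), and its primed libraries stayed at 2.26 to 21.9 CPM. TFAP2C, needed for naive human cells, was at 41.2, 40.5 and 34 CPM against 14.8, 14.8 and 8.92 (log2 fold change 1.60 ± 0.20, adjusted p = 1.83e-05), with the primed libraries at 7.47 to 39 CPM. The direction was the opposite for KLF4, at 1.44, 3.11 and 1.02 CPM in TL-CDK8/19i and 12, 6.8 and 10.9 in E-NHSM (log2 fold change -2.40 ± 0.44, adjusted p = 3.86e-04).

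TFE3, a factor whose place in the nucleus marks naive cells, was at 38.7, 36.1 and 32.8 CPM against 94.7, 86.8 and 95.5 (log2 fold change -1.35 ± 0.11, adjusted p = 2.95e-07); transcript levels say nothing of its place in the cell. DPPA3 (-4.12 ± 0.73) and NR5A2 (-1.35 ± 0.20) were lower as well. TFCP2L1 was lower at low counts (log2 fold change -2.65 ± 0.68, adjusted p = 0.00457), and its call was lost in the fit over all 8 groups, with an adjusted p of 0.112. SUSD2, a surface marker of naive human cells, was at 7.55, 6.65 and 3.8 CPM against 3.61, 2.29 and 1.21 (log2 fold change 1.35 ± 0.49, adjusted p = 0.03), a call that was lost in that fit and when TL-CDK8/19i replicate 1 or 2 or E-NHSM replicate 2 or 3 was left out (highest adjusted p 0.123). TBX3 (5.81 ± 0.93), GBX2 (3.51 ± 0.82), ESRRB (3.68 ± 1.07) and SALL1 (1.93 ± 0.14) were higher, the call of ESRRB being lost without TL-CDK8/19i replicate 3 (adjusted p = 0.0647). KLF17 had 0 counts in every TL-CDK8/19i library and at most 7 in an E-NHSM library, so it was not tested.

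**Figure D2:**
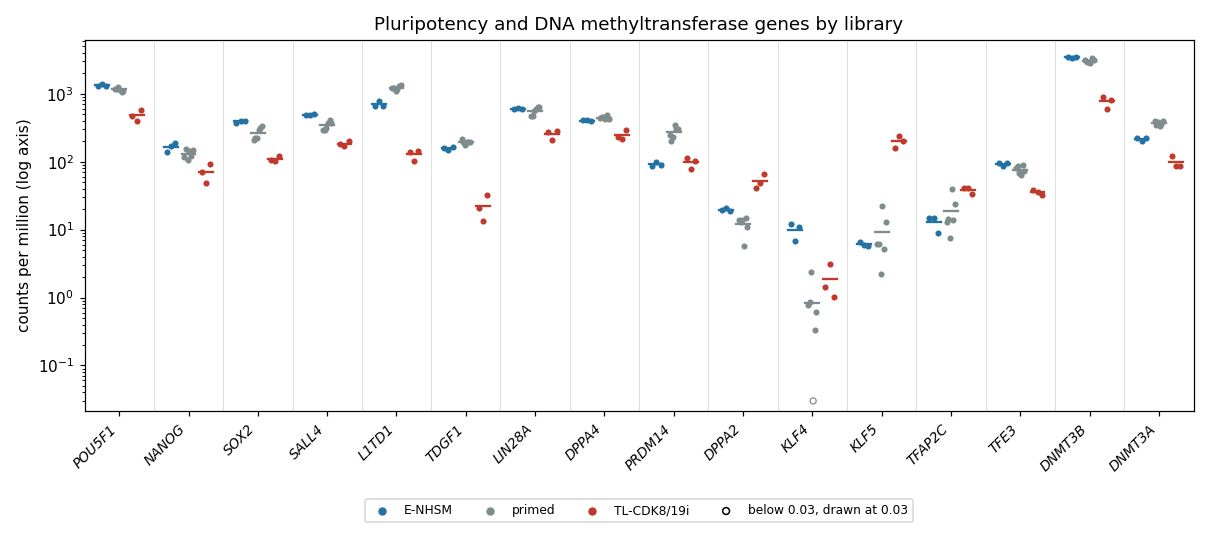
CPM (log axis) of 16 pluripotency, naive-state and DNA methyltransferase genes in each library, with E-NHSM in blue, primed in grey and TL-CDK8/19i in red; horizontal bars are group means and open points are values below 0.03. POU5F1, SOX2, TDGF1 and DNMT3B are lower in every red library than in every blue one, and KLF5 and TFAP2C are higher.

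Genes usually tied to the primed state were split as well: 9 of the 18 tested members were called higher in TL-CDK8/19i and 7 lower, with a median log2 fold change of 0.29, and 0.50 over the members with 10 counts in every library. ZIC5 (-1.02 ± 0.16), OTX2 (-1.04 ± 0.17), CD24 (-2.04 ± 0.086) and NODAL (-0.98 ± 0.20) were lower, the call of NODAL being lost in the fit over all 8 groups (adjusted p = 0.0968), whereas SFRP2 (1.55 ± 0.10), THY1 (2.82 ± 0.16) and CYTL1 (1.87 ± 0.29) were higher. FGF2 did not pass the test (log2 fold change 0.085 ± 0.10, adjusted p = 0.467). Of 11 tested writers and erasers of DNA methylation, 7 were lower and 3 higher, with a median log2 fold change of -0.44. DNMT3B, the main de novo methyltransferase of pluripotent cells, was at 894, 603 and 817 CPM in TL-CDK8/19i and 3498, 3391 and 3469 CPM in E-NHSM (log2 fold change -2.14 ± 0.12, adjusted p = 6.70e-09). The primed libraries, at 2868 to 3329 CPM, lay on the side of E-NHSM. DNMT3A was at 123, 86.7 and 86.3 CPM against 224, 200.4 and 223 (log2 fold change -1.11 ± 0.12, adjusted p = 5.81e-06), and here both protocols lay below the primed range of 338 to 393 CPM. UHRF1, which brings the maintenance enzyme to replicating DNA, was higher (0.60 ± 0.085), DNMT1, the maintenance enzyme, was higher by 0.21 ± 0.075 and lost its call with upper-quartile scaling (adjusted p = 0.172) and without TL-CDK8/19i replicate 3 or E-NHSM replicate 1 or 3, and the oxidase TET3 (-1.41 ± 0.11) and ZFP57, which protects imprints (-0.85 ± 0.25), were lower. The call of ZFP57 was lost in the fit over all 8 groups (adjusted p = 0.0652).

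Readouts of the MEK-ERK pathway were mostly higher in TL-CDK8/19i. Of 20 feedback and target genes, 17 were called higher and 1 lower, with a median log2 fold change of 1.88. DUSP6, the phosphatase that ERK induces against itself, was at 329, 371 and 443 CPM in TL-CDK8/19i and 26.1, 46.2 and 33 in E-NHSM (log2 fold change 3.47 ± 0.18, adjusted p = 4.92e-09). Primed cells had more of it than both, 514 to 685 CPM. SPRY4, an inhibitor of receptor signalling, followed with 127, 115 and 162 CPM against 24.2, 21.8 and 23.3 (log2 fold change 2.56 ± 0.13, adjusted p = 4.92e-09) and a primed range of 246 to 479.8 CPM. ETV5, an ETS factor downstream of FGF, was at 62.2, 65 and 75.1 CPM against 2.17, 2.5 and 0.686 (log2 fold change 5.25 ± 0.29, adjusted p = 9.00e-09), and its primed range of 38.2 to 65.7 CPM overlapped with TL-CDK8/19i.

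Other members of that list differed in their primed level. FOSL1, an AP-1 subunit, was the member with the largest difference (log2 fold change 8.10 ± 0.43, adjusted p = 6.02e-09), at 40.8, 43.2 and 46.7 CPM against 0.0462, 0 and 0.422, and was above its primed range of 3.71 to 17.6 CPM. EGR1 was at 140.3, 107 and 156 CPM against 35.7, 35.9 and 43.1 (log2 fold change 1.83 ± 0.14, adjusted p = 1.71e-07), far under the 1088 to 1739 CPM of primed cells. DUSP4 (3.78 ± 0.20), DUSP5 (4.62 ± 0.13), PHLDA1 (4.14 ± 0.12) and LIF itself (4.61 ± 0.30) were higher, and SPRY2 was lower (log2 fold change -0.40 ± 0.16, adjusted p = 0.043), a call that was lost without TL-CDK8/19i replicate 1 or 2, without E-NHSM replicate 2 or 3, with DESeq2 and in the fit over all 8 groups. MYC, often counted as an ERK target, did not pass the test, with 136, 166 and 173 CPM against 151, 161 and 144 (log2 fold change 0.080 ± 0.10, adjusted p = 0.516).

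The LIF and STAT3 list, the pathway that the tamoxifen-activated transgene enters, showed 8 members higher and 5 lower of 20 tested, with a median log2 fold change of 0.34 that was 0.13 without TL-CDK8/19i replicate 1. STAT3 itself was at 249.6, 149 and 166 CPM in TL-CDK8/19i and 156, 145 and 142 in E-NHSM (log2 fold change 0.36 ± 0.15, adjusted p = 0.0506), and replicate 1 alone lay clearly above E-NHSM. It lay just outside the threshold and passed under 8 of 14 alternatives, with adjusted p between 0.00916 (without TL-CDK8/19i replicate 2) and 0.283 (without replicate 1). Whether transgene reads add to this gene cannot be read from the counts. SOCS3, the feedback inhibitor that STAT3 induces, gave 27.3, 26.3 and 36.1 CPM against 27.4, 22.9 and 20.6 (log2 fold change 0.36 ± 0.18, adjusted p = 0.0949), its groups overlapped, and of the alternatives run it passed only without E-NHSM replicate 1. The receptor chain LIFR was lower (-0.86 ± 0.15) and its partner IL6ST, or gp130, was higher (1.48 ± 0.11). JAK1 (0.86 ± 0.14), JAK2 (0.80 ± 0.16), PIM1 (0.50 ± 0.11) and JUNB (2.37 ± 0.17) were higher. GADD45G had the largest difference of the list, with 2.55, 1.5 and 1.58 CPM in TL-CDK8/19i and 63.1, 55.1 and 74.9 in E-NHSM (log2 fold change -5.09 ± 0.22, adjusted p = 1.10e-09), and the primed libraries, at 0 to 7.35 CPM, lay near TL-CDK8/19i.

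**Figure D3:**
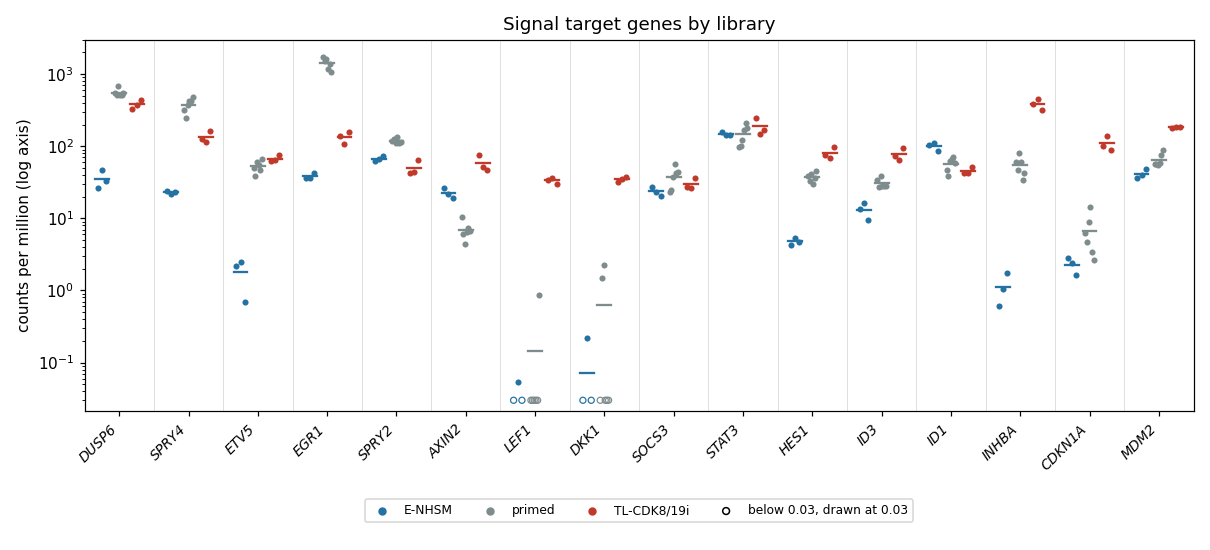
CPM (log axis) of 16 signal target genes by library, with the same colours, bars and open points as the plot of pluripotency genes. DUSP6, SPRY4, ETV5, LEF1, INHBA and CDKN1A are higher in each TL-CDK8/19i library than in each E-NHSM library.

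Targets of Wnt and beta-catenin were higher in TL-CDK8/19i for 14 of 18 tested members and lower for 3, with a median log2 fold change of 3.11. AXIN2, the negative feedback gene that responds in most tissues, was at 75.3, 51.8 and 47.6 CPM against 26, 21.7 and 19.3 (log2 fold change 1.40 ± 0.18, adjusted p = 2.32e-05), with 4.37 to 10.4 CPM in primed cells. LEF1, a DNA-binding partner of beta-catenin, was at 34, 36.9 and 30.2 CPM in TL-CDK8/19i against 1 count over the 3 E-NHSM libraries, a ratio of 1974-fold with a 95% counting interval of 353 to 78035. DKK1, a secreted Wnt inhibitor, reached 31.6, 35.1 and 37.9 CPM against 0, 0.218 and 0 (log2 fold change 8.85 ± 0.46, adjusted p = 5.15e-09), and SP5 12, 9.54 and 13.5 CPM against 0 counts in all E-NHSM libraries, at least 231-fold higher with a floor of 3 counts over the group. MSX1, a homeobox gene that BMP also induces, had 0 counts in E-NHSM too and was at 10.7, 5.57 and 4.45 CPM, at least 132-fold higher. LEF1, DKK1 and SP5 were low in the primed libraries too, whose highest values were 0.871 CPM for LEF1, 2.26 CPM for DKK1 and 1.38 CPM for SP5. NKD1 (3.30 ± 0.29), RNF43 (1.32 ± 0.23) and TNFRSF19 (2.14 ± 0.14) were higher, and TCF7 (-0.88 ± 0.16), BAMBI (-0.61 ± 0.19) and ZNRF3 (-0.37 ± 0.13) lower. The call of BAMBI was lost without TL-CDK8/19i replicate 3 (adjusted p = 0.0609), and that of ZNRF3 without TL-CDK8/19i replicate 2 or 3 or E-NHSM replicate 2 (highest adjusted p 0.124). Over the members with at least 10 counts in all 6 libraries the median was smaller (9 members, 5 higher and 3 lower, with a median of 1.23).

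Nodal and activin signal through SMAD2 and SMAD3 and hold the primed state. In the Nodal-Activin list 9 of the 18 tested members were called higher in TL-CDK8/19i and 5 lower, with a median log2 fold change of 0.52, and 0.29 over the members with 10 counts in every library. INHBA, which encodes a subunit of activin A, was at 391, 446 and 320.4 CPM in TL-CDK8/19i and 0.601, 1.03 and 1.74 in E-NHSM (log2 fold change 8.45 ± 0.23, adjusted p = 2.03e-11). The ligand NODAL (-0.98 ± 0.20), its co-receptor TDGF1 and FOXH1, the partner of SMAD2 in the nucleus, at 7.77, 6.75 and 7.98 CPM against 53.5, 63.4 and 60 (log2 fold change -2.95 ± 0.15, adjusted p = 5.15e-09), were lower. SMAD2 did not pass (-0.16 ± 0.085), SMAD3 (0.56 ± 0.092) and SMAD4 (0.59 ± 0.12) were higher, and the inhibitory SMAD7 was lower (-0.95 ± 0.091). CER1, an antagonist of Nodal, was higher (3.03 ± 0.42), as was the activin binder FST (1.61 ± 0.087). INHBB, another activin subunit, was at 5.66, 5.15 and 2.78 CPM against 0, 0.163 and 0, a ratio of 87-fold with a 95% counting interval of 29.1 to 428.

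For BMP signalling, 15 of the 22 tested members were called higher in TL-CDK8/19i and 2 lower, with a median log2 fold change of 1.67. Over the members with at least 10 counts in all 6 libraries it was smaller (16 members, 11 higher and 3 lower, with a median of 1). BMP4 was at 50.5, 53.7 and 37.6 CPM against 15, 5.93 and 7.81 (log2 fold change 2.31 ± 0.28, adjusted p = 1.38e-05), BMP7 at 59.7, 56.9 and 52.1 against 14.2, 10.5 and 13.3 (log2 fold change 2.17 ± 0.15, adjusted p = 8.24e-08), and the antagonist GREM1 at 321, 527 and 395 against 2.08, 2.07 and 1.95 (log2 fold change 7.68 ± 0.21, adjusted p = 2.03e-11). Among the ID genes, direct targets of BMP, ID3 (2.60 ± 0.20), ID4 (1.02 ± 0.22) and ID2 (0.94 ± 0.26) were higher and ID1, at 42.8, 43 and 52 CPM against 105, 111 and 86.3, lower (log2 fold change -1.11 ± 0.13, adjusted p = 6.48e-06). The receptors BMPR1B (3.20 ± 0.31) and BMPR2 (1.17 ± 0.10) were higher, as was the homeobox gene MSX2 (5.70 ± 0.90), and SMAD5 did not pass (0.14 ± 0.089).

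FGF ligands and receptors were mixed: 5 of the 13 tested members were called higher in TL-CDK8/19i and 4 lower, with a median log2 fold change of -0.0088. FGF1 (4.90 ± 0.28), FGF17 (4.85 ± 0.65) and FGF18 (3.17 ± 1.21) were higher, FGFR1, the main receptor of these cells, did not pass (log2 fold change -0.045 ± 0.074, adjusted p = 0.623), and FGF11 (-1.41 ± 0.22) and FGFR4 (-1.38 ± 0.23) were lower. The call of FGF18 was lost with no filter on low counts and without any 1 of the TL-CDK8/19i libraries or E-NHSM replicate 1 or 2 (highest adjusted p 0.173). In the Notch list 9 of the 18 tested members were called higher in TL-CDK8/19i and 2 lower, with a median log2 fold change of 0.56. Over the 16 members with 10 counts in every library the median was 0.75. HES1, the Notch target, was at 75.4, 68.4 and 98.5 CPM against 4.25, 5.33 and 4.75 (log2 fold change 4.10 ± 0.18, adjusted p = 1.07e-09), the receptor-modifying enzyme LFNG (2.69 ± 0.33), HES4 (2.13 ± 0.43) and the ligand JAG1 (1.35 ± 0.12) were higher and the ligand DLL1 lower (-1.68 ± 0.31).

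The Mediator kinase module, the target of the inhibitor in TL-CDK8/19i, had 6 of its 7 genes higher and 1 lower, with a median log2 fold change of 0.70. CDK8 was at 69.5, 70.2 and 74 CPM in TL-CDK8/19i and 59.5, 53.3 and 59.1 in E-NHSM (log2 fold change 0.33 ± 0.10, adjusted p = 0.0129), and its primed range of 63.1 to 77.8 CPM spanned the TL-CDK8/19i values. CDK19 was at 29.1, 28.8 and 28 CPM against 20.1, 17.4 and 16.2 (log2 fold change 0.70 ± 0.16, adjusted p = 0.00184), above the primed range of 7.05 to 13.5 CPM in both protocols. MED12, which activates the kinase, was at 97.7, 80.1 and 71.3 CPM against 19.8, 12.4 and 18.5 (log2 fold change 2.31 ± 0.18, adjusted p = 1.94e-07), and here E-NHSM lay below the primed range of 51.1 to 82.5 CPM while TL-CDK8/19i did not. MED12L (1.5 ± 0.13) and MED13L (0.78 ± 0.085), further subunits of the module, were higher. CCNC, the cyclin of both kinases, was the lower member, at 90.7, 89.7 and 86.1 against 136, 158 and 171 CPM (log2 fold change -0.78 ± 0.10, adjusted p = 1.69e-05). The call of CDK8 was lost with upper-quartile scaling (adjusted p = 0.0551) and without TL-CDK8/19i replicate 3.

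Epithelial genes were mostly lower in TL-CDK8/19i and mesenchymal genes mostly higher. Of 18 tested epithelial genes, 14 were lower in TL-CDK8/19i and 4 higher, with a median log2 fold change of -2.51. The median was smaller in size, at -1.69, over the 11 members with 10 counts in every library, 8 lower and 3 higher. CDH1, or E-cadherin, was at 26, 9.11 and 14.8 CPM in TL-CDK8/19i and 213, 229 and 239 in E-NHSM (log2 fold change -3.76 ± 0.24, adjusted p = 3.11e-08). Its primed range, 29.8 to 106 CPM, lay between the protocols, so that TL-CDK8/19i was below and E-NHSM above the primed cells. EPCAM, an adhesion molecule of epithelia and pluripotent cells, was at 37.1, 22.4 and 24.9 CPM against 260.3, 214 and 236 (log2 fold change -3.06 ± 0.16, adjusted p = 4.18e-09), with 143 to 204 CPM in primed cells. ESRP1, a splicing factor of epithelia, was at 16.9, 9.22 and 17.1 CPM against 197, 209 and 199.5 (log2 fold change -3.79 ± 0.17, adjusted p = 1.36e-09). RAB25 (-5.39 ± 0.61), CLDN7 (-3.93 ± 0.26), CLDN3 (-3.59 ± 0.56), the epithelial factor GRHL2 (-3.03 ± 0.37) and ST14 (-2.51 ± 0.31) were lower, with the calls of CLDN3 (adjusted p = 0.0597) and GRHL2 (adjusted p = 0.0549) lost in the fit over all 8 groups. CLDN4 (4.40 ± 0.62), KRT8 (2.11 ± 0.11), OCLN (1.44 ± 0.12) and PROM1 (0.64 ± 0.085) went the other way.

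Of 18 tested mesenchymal genes, 16 were higher in TL-CDK8/19i and 1 lower, with a median of 3.75. CDH2, or N-cadherin, was at 619, 726 and 701 CPM against 42.4, 39.8 and 38.3 (log2 fold change 4.10 ± 0.094, adjusted p = 8.22e-12), and its primed range of 197 to 350.0 CPM lay between the protocols. VIM, the filament protein vimentin, was at 2216, 3181 and 2698 CPM against 203, 216 and 246 (log2 fold change 3.63 ± 0.13, adjusted p = 1.45e-10). FN1, fibronectin, was at 4958, 5143 and 3400.5 CPM against 346, 336 and 341 (log2 fold change 3.74 ± 0.13, adjusted p = 1.57e-10). For these 3 genes each TL-CDK8/19i library was above each primed library and each E-NHSM library was below. The repressors of CDH1 differed among themselves: ZEB1, at 125, 146 and 131 CPM against 5.32, 6.48 and 5.86 (log2 fold change 4.53 ± 0.13, adjusted p = 2.95e-11), ZEB2 (3.41 ± 0.18) and SNAI2 (1.99 ± 0.26) were higher, SNAI1 did not pass (log2 fold change 0.30 ± 0.24, adjusted p = 0.31), and TWIST1 was lower, at 29, 25.4 and 37 against 48.5, 41.7 and 38.3 CPM (log2 fold change -0.47 ± 0.16, adjusted p = 0.0235). The TWIST1 call was lost in the fit over all 8 groups (adjusted p = 0.45) and without TL-CDK8/19i replicate 1 or 2 or E-NHSM replicate 1. TWIST2 (5.49 ± 0.92) was higher, and S100A4, often called fibroblast-specific protein, was at 17.5, 24.3 and 25.2 CPM against 0.0462, 0 and 0, a ratio of 1330.0-fold with a 95% counting interval of 238 to 52609.5. ACTA2, a smooth-muscle actin, was at 1123, 1699 and 1165 CPM against 11.2, 20.5 and 15.7 (log2 fold change 6.42 ± 0.22, adjusted p = 1.38e-10).

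**Figure D4:**
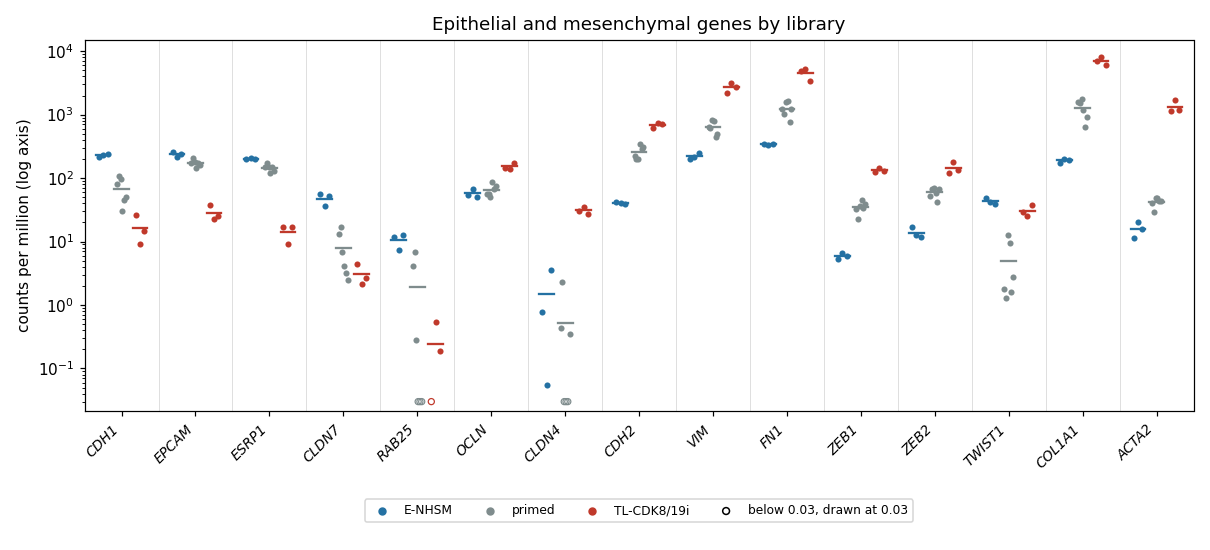
CPM (log axis) of 15 epithelial and mesenchymal genes by library, with E-NHSM in blue, primed in grey, TL-CDK8/19i in red, group means as bars and values below 0.03 as open points. CDH1, EPCAM, ESRP1, CLDN7 and RAB25 are lower in red than in blue and CDH2, VIM, FN1, ZEB1, COL1A1 and ACTA2 higher, with primed cells between both for CDH1, CDH2, VIM and FN1.

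Markers of fibroblasts, another cell type that such a culture could hold, were called higher for all 15 tested members of the list, with a median log2 fold change of 3.98. All 11 members with 10 counts in every library were called higher too, with a median of 3.77. The summed level of the list was 10358 to 13141 CPM in TL-CDK8/19i, 697 to 743 CPM in E-NHSM and 1461 to 3004 CPM in primed libraries. COL1A1, the chain of type I collagen, gave most of that sum in TL-CDK8/19i, with 7041, 8122 and 6147 CPM against 175, 199 and 196 (log2 fold change 5.24 ± 0.11, adjusted p = 6.14e-12). Of the markers that define fibroblasts more narrowly, DCN was at 4.77, 3.86 and 5.01 CPM and LUM at 7.66, 9.33 and 3.8 CPM in TL-CDK8/19i, and both had 0 counts in all E-NHSM and all primed libraries. Both therefore passed the count filter only through TL-CDK8/19i and could be called only higher. DPT, at 6, 2 and 12 counts in TL-CDK8/19i and 0, 5 and 31 in E-NHSM, was too low to be tested. So was TCF21, at 2, 1 and 0 counts against 12, 0 and 0. PRRX1 was at 99.9, 94.9 and 88.6 CPM against 1.48, 3.76 and 2.96 (log2 fold change 5.15 ± 0.23, adjusted p = 1.52e-09), with primed libraries at 21 to 97.1 CPM, and POSTN at 48.1, 68.1 and 43.3 against 1.9, 0.272 and 1 (log2 fold change 5.62 ± 0.38, adjusted p = 6.15e-08). The part of other cell types in the mesenchymal and matrix results was not tested.

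Of 21 tested collagen genes, 19 were higher in TL-CDK8/19i and none was lower, with a median of 2.07. They ranged from fibrillar chains such as COL3A1 (5.76 ± 0.23), COL5A2 (5.46 ± 0.19) and the cartilage chain COL2A1 (6.72 ± 0.15) to the basement membrane chains COL4A1 (2.84 ± 0.11) and COL4A2 (1.81 ± 0.10). COL9A1 (0.0017 ± 0.51) and COL9A2 (0.23 ± 0.45) did not pass. Among their receptors and partners, 17 of the 22 tested members were called higher in TL-CDK8/19i and 2 lower, with a median log2 fold change of 1.97. ITGB1, the beta chain shared by most matrix receptors, was at 3539, 4748 and 4441 CPM against 324, 367 and 357 (log2 fold change 3.62 ± 0.11, adjusted p = 5.33e-11). ITGA5, which with it binds fibronectin, was at 772, 989 and 821 CPM against 116, 111 and 103 (log2 fold change 2.98 ± 0.10, adjusted p = 1.19e-10), and ITGB3 (4.76 ± 0.62), LAMA3 (4.67 ± 0.79) and LAMA4 (6.70 ± 0.22) were higher, while ITGB5 (-0.88 ± 0.077) was lower.

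Hippo effectors and YAP targets, which respond to attachment and tension, were higher for 12 of 16 tested members and lower for 3, with a median of 1.08. ANKRD1 was at 734, 1198 and 965 CPM against 5.09, 5.12 and 1.32 (log2 fold change 7.98 ± 0.32, adjusted p = 4.67e-10), and of the secreted matrix proteins CYR61 was at 998, 1088 and 1137 against 237, 224 and 178 (log2 fold change 2.36 ± 0.11, adjusted p = 1.36e-09) and CTGF at 1239, 1367 and 1415 against 380.4, 403 and 327 (log2 fold change 1.88 ± 0.091, adjusted p = 2.66e-09). For CTGF both protocols were below the primed range of 1905 to 2331 CPM. F3, tissue factor (3.99 ± 0.21), and NUAK2 (3.16 ± 0.15) were higher. YAP1 itself was lower (-0.58 ± 0.076) and its paralogue WWTR1, or TAZ, higher (1.34 ± 0.10).

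Regulators of embryonic lineages were mostly higher in TL-CDK8/19i, at levels that remained low for many. No endoderm or mesoderm member was called lower: 11 of 15 endoderm and 12 of 15 mesoderm members were higher, with medians of 4.38 and 5.85 (4.82 for mesoderm with genes at 0 in a group set at their bound). EOMES, a T-box factor of mesendoderm, was at 46.3, 37.6 and 76.9 CPM against 0.185, 0.0544 and 0.0528 (log2 fold change 8.95 ± 0.43, adjusted p = 2.55e-09), with 5.85 to 15.7 CPM in primed cells. GATA6, a factor of primitive endoderm, was at 6.88, 7.29 and 7.24 CPM against 0 counts in E-NHSM, at least 140.4-fold higher, and its primed libraries ranged over 0 to 7.19 CPM. SOX17 was at 5, 2.14 and 7.24 CPM against 0, 0 and 0.422 (log2 fold change 5.06 ± 1.09, adjusted p = 0.00136). LHX1 was at 31.6, 33.8 and 32.6 CPM against 0, 0.49 and 0 (log2 fold change 7.67 ± 0.54, adjusted p = 8.34e-08), and CXCR4 at 30.4, 42.8 and 38.8 against 1.34, 0.218 and 1.8 (log2 fold change 5.06 ± 0.40, adjusted p = 2.64e-07). HNF4A (at least 31-fold), FOXC2 (at least 109-fold) and HAND1 (at least 35.8-fold) were higher against 0 counts in E-NHSM. Members at 0 counts in E-NHSM, GATA6 among them, passed the count filter only through TL-CDK8/19i and could be called only higher. AFP did not pass (log2 fold change 0.65 ± 0.29, adjusted p = 0.0671), nor did MIXL1 (log2 fold change 0.28 ± 0.37, adjusted p = 0.545) or TBX6 (-0.64 ± 0.48).

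Few members of these lists had at least 10 counts in all 6 libraries. For endoderm that limit left 3 members, 1 higher and 0 lower, with a median of 0.76, and for mesoderm 5 members, 2 higher and 0 lower, with a median of 0.29. In the trophoblast and amnion list, 8 of 11 tested members were higher and 1 lower, with a median of 4.8. KRT7 was at 125, 211 and 133 CPM against 4.12, 3.92 and 2.9 (log2 fold change 5.43 ± 0.23, adjusted p = 6.74e-10), GATA3 at 4.77, 7.83 and 3.62 CPM against 0 counts, at least 105-fold higher, TFAP2B was higher (5.53 ± 0.95), and VTCN1, of trophoblast and amnion, was lower, at 43.2, 27.7 and 40 against 79.4, 84.6 and 92.6 CPM (log2 fold change -1.19 ± 0.15, adjusted p = 1.76e-05). Over 4 members with 10 counts in every library the median of the list was 1.24, and without E-NHSM replicate 2 that of the whole list was 7.69.

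Neural genes were higher for 14 of 23 tested members and lower for 1, with a median of 2.05. CRABP1, a retinoic acid binding protein of early neural cells, was at 308, 209 and 211 CPM against 1.43, 1.47 and 1.16 (log2 fold change 7.49 ± 0.20, adjusted p = 2.03e-11), with 5.05 to 23.4 CPM in primed cells. The neurofilament genes NEFM, at 219.6, 308 and 275 CPM against 13.5, 13.9 and 14.4 (log2 fold change 4.28 ± 0.13, adjusted p = 5.69e-11), and NEFL (2.76 ± 0.18) and the neuronal tubulin TUBB3 (3.76 ± 0.25) were higher. PAX6, the early neural regulator, did not pass, with 3, 3.22 and 3.53 CPM against 1.39, 3.59 and 3.06 (log2 fold change 0.30 ± 0.51, adjusted p = 0.636), and neither did SOX1 (log2 fold change 2.35 ± 1.04, adjusted p = 0.0663) or SOX21 (-0.020 ± 0.16). WNT1, a signal of the dorsal midbrain and hindbrain, was higher (6.18 ± 0.78), and SYT4 was the lower member (-5.11 ± 0.79).

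Of 16 tested neural crest regulators, 14 were higher and 1 lower, with a median of 4.93. PAX3 was at 27.9, 34.7 and 26.7 CPM against 0.0462, 0.327 and 0 (log2 fold change 7.88 ± 0.47, adjusted p = 1.74e-08), SOX10 at 18.2, 26.7 and 14.1 against 0, 1.2 and 0 (log2 fold change 5.67 ± 0.79, adjusted p = 4.47e-05), and the endothelin receptor EDNRB at 37.2, 45 and 57.4 against 0, 0.98 and 0.475 (log2 fold change 6.65 ± 0.48, adjusted p = 9.89e-08). SOX9 was higher too (2.34 ± 0.39). Over the 7 members with 10 counts in every library the median was 1.15, and without TL-CDK8/19i replicate 1 the median of the whole list was 4.05.

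TL-CDK8/19i replicate 1 stood apart from the other two for a small set of genes. There were 8 tested genes at 10 CPM or more in it and at least 4 times higher than in both other TL-CDK8/19i libraries, while replicates 2 and 3 had none and the E-NHSM libraries had 1 in all. NR2F1, a nuclear receptor of the developing brain and neural crest, was at 62.9, 8.47 and 5.85 CPM. SLIT1, an axon guidance ligand, was at 64.4, 16 and 12.2 CPM, BMP5 at 25.4, 3.86 and 4.45 CPM, the endothelin receptor EDNRA at 20.8, 1.82 and 2.04 CPM, the Wnt antagonist FRZB at 17, 1.39 and 1.02 CPM and TFAP2A, a factor of ectoderm and neural crest, at 12.4, 2.47 and 1.86 CPM. ZIC1 (28.4, 7.5 and 4.08 CPM), ZIC4 (10.9, 2.79 and 1.11 CPM) and PAX7 (8.33, 0.965 and 2.04 CPM) went the same way without reaching that limit, and LMX1A, too low to be tested, had 53, 2 and 2 counts. In each of these genes replicate 1 lay above both other libraries.

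The genes above were picked for a high replicate 1, so leaving it out lowered their folds by construction. It also ended some calls. NR2F1 was called with all libraries (log2 fold change 6.28 ± 0.97, adjusted p = 1.02e-04) and without replicate 1 (log2 fold change 4.45, adjusted p = 0.00136), as were BMP5 (log2 fold change 3.97, adjusted p = 0.0139 without it), TFAP2A (log2 fold change 6.46, adjusted p = 0.00353), ZIC1 (log2 fold change 6.25, adjusted p = 0.00142) and SLIT1 (log2 fold change 3.95, adjusted p = 2.79e-05). The calls of EDNRA (log2 fold change 1.70, adjusted p = 0.298), FRZB (log2 fold change 2.51, adjusted p = 0.215), PAX7 (log2 fold change 2.22, adjusted p = 0.188) and ZIC4 (log2 fold change 3.73, adjusted p = 0.0658) were lost, that of FRZB also with the DESeq2 Wald test. ZNF91, at 11.1, 1.72 and 1.76 CPM in TL-CDK8/19i and 23.1, 30.2 and 38.5 in E-NHSM, was lower with all libraries (log2 fold change -2.66 ± 0.51, adjusted p = 6.22e-04) and lower still without replicate 1 (log2 fold change -4.10, adjusted p = 2.24e-06).

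PEG3, a paternally expressed imprinted gene that encodes a zinc finger protein, was split between the replicates. It was at 84.7, 0 and 0 CPM in TL-CDK8/19i, that is 763 counts in replicate 1 and 0 counts in replicates 2 and 3. E-NHSM had 55.3, 55.7 and 59.1 CPM and the primed libraries 30.7 to 59.7 CPM. The comparison over all 6 libraries did not pass (log2 fold change -1.01 ± 1.04, adjusted p = 0.42), and without replicate 1 it did (log2 fold change -12.80, adjusted p = 2.93e-08), a fitted value that depends on how a group at 0 is treated. EDNRA, FRZB, SLIT1 and ZNF91 were named after their values were seen.

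**Figure D5:**
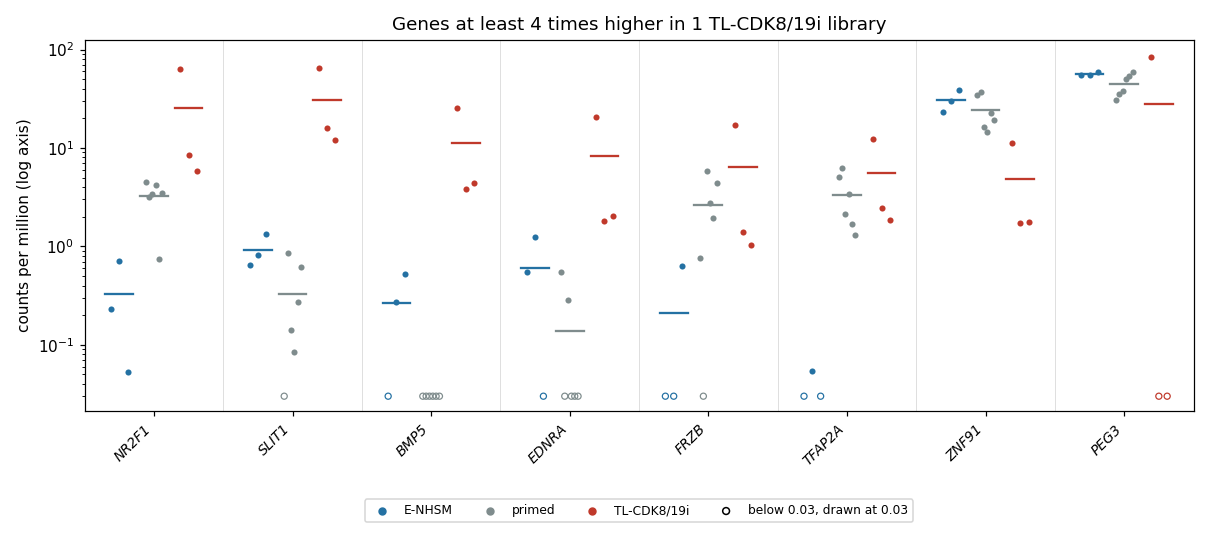
CPM (log axis) of the 8 genes at least 4 times higher in TL-CDK8/19i replicate 1 than in replicates 2 and 3, by library, with E-NHSM in blue, primed in grey and TL-CDK8/19i in red; bars are means and open points are values below 0.03. Replicate 1 is the leftmost red point, and for PEG3 the other two red points are at 0.

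HOX genes, which give position along the body axis, were higher for 10 of 11 tested members, with a median of 5.74 (5.05 with genes at 0 in a group set at their bound). None had 10 counts in all 6 libraries, and the list summed to only 1.2 to 3.16 CPM in E-NHSM. Its members therefore passed the count filter mainly through TL-CDK8/19i and could hardly be called lower. HOXB2 was at 15.4, 16 and 8.35 CPM against 0.231, 0 and 0 (log2 fold change 7.18 ± 0.71, adjusted p = 1.84e-06), and HOXC6 at 4.11, 6.65 and 3.9 against 0 counts, at least 95.1-fold higher. HOXA2 (at least 93.8-fold) and HOXB1 (at least 33.1-fold) were likewise at 0 in E-NHSM. In the retinoic acid list 11 of the 14 tested members were called higher in TL-CDK8/19i and 1 lower, with a median log2 fold change of 1.94. Over the 11 members with 10 counts in every library, 8 were higher and 1 lower, with a median of 1.42. CYP26A1, the enzyme that breaks retinoic acid down and is induced by it, was at 128, 104 and 129 CPM against 2.17, 0.816 and 1.11 (log2 fold change 6.44 ± 0.24, adjusted p = 2.08e-10), with primed cells at 36.5 to 100.3 CPM. ALDH1A2, which makes retinoic acid, was at 1.89, 4.29 and 2.78 CPM against 0 counts, at least 58.7-fold higher. RARB, a receptor with the same kind of response, was at 33.5, 42.6 and 45.1 CPM against 0.462, 0.925 and 0.264 (log2 fold change 6.21 ± 0.32, adjusted p = 4.15e-09), above its primed range of 4.56 to 16.6 CPM.

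Cell cycle regulators of the G1-S step were higher for 10 of 19 tested members and lower for 4, with a median of 0.71. CDKN1A, the cyclin-dependent kinase inhibitor p21, was at 99.8, 139 and 90.2 CPM in TL-CDK8/19i and 2.82, 2.39 and 1.64 in E-NHSM (log2 fold change 5.59 ± 0.22, adjusted p = 4.44e-10), and the primed libraries, at 2.61 to 14.5 CPM, lay below every TL-CDK8/19i library. CDKN2B, or p15, was at 30.1, 41.8 and 22.5 CPM against 0.74, 0.98 and 0.37 (log2 fold change 5.50 ± 0.35, adjusted p = 2.82e-08), whereas CDKN1C, or p57, was lower (-2.21 ± 0.24). The kinase partner CDK6 (3.34 ± 0.36) and the D cyclins CCND1 (1.06 ± 0.11) and CCND2 (1.21 ± 0.080) were higher. For DNA replication genes, 5 of the 29 tested members were called higher in TL-CDK8/19i and 11 lower, with a median log2 fold change of -0.20 (-0.11 without TL-CDK8/19i replicate 1), with the primase PRIM1 (-0.96 ± 0.12) and the helicase subunit MCM3 (-0.48 ± 0.082) lower and the nucleotide synthesis genes RRM2 (1.13 ± 0.090) and TYMS (0.83 ± 0.10) and the clamp loader subunit RFC5 (0.74 ± 0.15) higher. For mitosis genes, 6 of the 26 tested members were called higher in TL-CDK8/19i and 12 lower, with a median log2 fold change of -0.17 (-0.27 with upper-quartile scaling). The checkpoint kinase TTK (-0.96 ± 0.090), CCNB1 (-0.93 ± 0.079), PTTG1 (-0.86 ± 0.10) and CDC20 (-0.83 ± 0.082) were lower and FOXM1 (0.63 ± 0.086) higher, and no member of these last 2 lists changed by more than 1.13 on the log2 scale.

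Of 25 members of the list of growth arrest and DNA damage response genes, 16 were higher and 2 lower, with a median of 2.02. MDM2, a ubiquitin ligase, was at 180.3, 185 and 183 CPM against 36.6, 39.4 and 48 (log2 fold change 2.17 ± 0.11, adjusted p = 3.61e-09). ZMAT3 was at 108, 117 and 116 against 8.46, 10.8 and 12.4 (log2 fold change 3.45 ± 0.14, adjusted p = 6.66e-10), GADD45A at 106, 126 and 111 against 10.6, 16 and 9.61 (log2 fold change 3.27 ± 0.17, adjusted p = 5.93e-09), and the death receptor FAS at 45.6, 41.1 and 47 against 4.25, 4.14 and 10.6 (log2 fold change 2.84 ± 0.30, adjusted p = 3.76e-06). PLK2 (3.84 ± 0.17) and GDF15 (3.33 ± 0.21) were higher. The death genes BBC3, or PUMA (0.19 ± 0.22), and AEN (0.11 ± 0.14) did not pass. The BCL2 family was divided: 6 of the 17 tested members were called higher in TL-CDK8/19i and 4 lower, with a median log2 fold change of 0.19 (0.12 without E-NHSM replicate 1 and 0.30 without E-NHSM replicate 2). The survival genes BCL2L1 (1.85 ± 0.12) and BCL2 (3.33 ± 0.79) and the death agonist BID (1.74 ± 0.21) were higher, and HRK (-2.37 ± 0.29), PMAIP1, or NOXA (-1.19 ± 0.16), BNIP3 (-1.56 ± 0.13) and BNIP3L (-1.55 ± 0.11) were lower.

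Nuclear genes of the respiratory chain were mostly lower in TL-CDK8/19i. Of 40 tested subunits of oxidative phosphorylation, 30 were lower and 2 higher, with a median of -0.66. COX7C (-1.36 ± 0.44), COX7B (-1.29 ± 0.14) and SDHB (-1.23 ± 0.12) were lower, and NDUFA4 was at 55.1, 55.7 and 66 CPM against 146, 152 and 161 (log2 fold change -1.36 ± 0.10, adjusted p = 1.24e-07). The call of COX7C was lost in the fit over all 8 groups (adjusted p = 0.0924) and without TL-CDK8/19i replicate 1 or 3. The share of all reads in ribosomal protein genes was lower too, with 1.73 to 1.97% in TL-CDK8/19i, 3.69 to 3.82% in E-NHSM and 2.23 to 2.48% in primed cells. In the glycolysis and hypoxia list 9 of the 29 tested members were called higher in TL-CDK8/19i and 17 lower, with a median log2 fold change of -0.54. LDHA, which makes lactate, was at 430.5, 404 and 442 CPM against 1628, 1462 and 1694 (log2 fold change -1.89 ± 0.078, adjusted p = 6.66e-10), and GAPDH (-0.78 ± 0.064), PGK1 (-0.84 ± 0.085) and ENO1 (-0.76 ± 0.072) were lower. The glucose transporters SLC2A3, at 1314, 1331 and 1420.1 CPM against 217, 207 and 223 (log2 fold change 2.67 ± 0.074, adjusted p = 2.41e-11), and SLC2A1 (2.03 ± 0.10) were higher. Among hypoxia genes, NDRG1 (2.88 ± 0.20), the peptide ADM (5.64 ± 0.20), P4HA1 (log2 fold change 0.40) and PFKFB3 were higher. BNIP3 (log2 fold change -1.56), CA9 (-1.04), PDK1 (-0.62), VEGFA and PFKFB4 were lower, and EGLN3 did not pass. The call of CA9 was not kept under every alternative. The list thus held members of both directions.

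The amino acid stress program run by ATF4 was lower for 13 of 27 tested members and higher for 5, with a median of -0.37. ASNS, asparagine synthetase, was at 227, 243 and 233 CPM against 722, 675 and 716 (log2 fold change -1.57 ± 0.072, adjusted p = 1.77e-09), and ATF4 itself was lower (-0.82 ± 0.070), as was CHAC1 (-1.93 ± 0.17), while VLDLR (1.25 ± 0.10) and the cystine transporter gene SLC7A11 (1.15 ± 0.14) were higher. The primed range of ASNS, 148 to 249 CPM, held the TL-CDK8/19i values and lay below E-NHSM. Amino acid transporters were balanced: 9 of the 22 tested members were called higher in TL-CDK8/19i and 9 lower, with a median log2 fold change of 0.31 (0.18 without E-NHSM replicate 1). SLC38A4, an imprinted transporter gene in mouse, was at 149, 147 and 139.6 CPM against 1.34, 1.8 and 2.27 (log2 fold change 6.36 ± 0.16, adjusted p = 1.23e-11), the glutamate transporter SLC1A2 (2.54 ± 0.70) and the taurine transporter SLC6A6 (1.59 ± 0.081) were higher, and SLC7A8 was lower (-2.17 ± 0.16). The call of SLC1A2 was lost without TL-CDK8/19i replicate 1 (adjusted p = 0.0626). For cholesterol synthesis, 4 of the 23 tested members were called higher in TL-CDK8/19i and 9 lower, with a median log2 fold change of -0.061, with SC5D (-1.14 ± 0.10), DHCR7 (-1.06 ± 0.13) and FDFT1 (-0.89 ± 0.083) lower.

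Among imprinted genes, 11 of the 20 tested members were called higher in TL-CDK8/19i and 4 lower, with a median log2 fold change of 0.55. IGF2, a growth factor expressed from the paternal copy, was at 52.7, 89.4 and 38.8 CPM against 0.462, 0.599 and 0 (log2 fold change 7.39 ± 0.48, adjusted p = 4.04e-08), and its primed libraries reached at most 0.959 CPM. PLAGL1 was at 76, 67.2 and 73.5 CPM against 3.05, 0.49 and 2.06 (log2 fold change 5.26 ± 0.34, adjusted p = 3.95e-08), DIRAS3 was at least 69.5-fold higher against 0 counts in E-NHSM, and DLK1 (2.94 ± 0.44) and MEST (1.41 ± 0.15) were higher. For MYC, LIN28 and let-7 targets, 6 of the 16 tested members were called higher in TL-CDK8/19i and 6 lower, with a median log2 fold change of -0.058. MYCN (2.05 ± 0.11) and HMGA2, at 649, 821 and 749 CPM against 59.7, 66.5 and 72 (log2 fold change 3.51 ± 0.11, adjusted p = 5.69e-11), were higher, whereas HMGA1 (-1.52 ± 0.075), nucleolin NCL (-1 ± 0.068) and nucleophosmin NPM1 (-1.33 ± 0.080) were lower.

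The last 3 lists held members of both directions. For TFE3, its relatives and lysosome genes, 9 of the 24 tested members were called higher in TL-CDK8/19i and 5 lower, with a median log2 fold change of 0.12, with TFEB (2.98 ± 0.65) and ATP6V0D1 (1.41 ± 0.17) higher and RRAGD (-2.06 ± 0.17) and MITF (-1.40 ± 0.38) lower. For heat shock proteins, 8 of the 18 tested members were called higher in TL-CDK8/19i and 7 lower, with a median log2 fold change of 0.085, with HSPB8 (2.40 ± 0.34), the factor HSF2 (1.36 ± 0.14), DNAJB4 (1.34 ± 0.25) and HSPH1 (1.27 ± 0.11) and the endoplasmic reticulum chaperones HSPA5 (0.83 ± 0.075) and HSP90B1 (1.09 ± 0.081) higher and the mitochondrial HSPD1 (-0.82 ± 0.083) and cytosolic HSP90AB1 (-0.90 ± 0.071) lower. For interferon-stimulated genes, 3 of the 21 tested members were called higher in TL-CDK8/19i and 7 lower, with a median log2 fold change of -0.72. That median depended on single libraries, with -1.21 without TL-CDK8/19i replicate 3, -0.45 without TL-CDK8/19i replicate 1 or E-NHSM replicate 1 and -0.26 without E-NHSM replicate 2, and it was also -0.45 over the 13 members with 10 counts in every library. Among its members, IRF7 (-2.64 ± 0.88), IRF9 (-1.83 ± 0.25), MX1 (-1.31 ± 0.17) and IFITM1 (-0.92 ± 0.11) were lower and IFI6 (2.76 ± 0.81) and TAP1 (0.84 ± 0.20) higher. OAS1 was at 0.333, 0 and 0 CPM against 1.2, 1.52 and 0.792, 11.4-fold with a 95% counting interval of 3.73 to 56.4 lower. The calls of OAS1 (highest adjusted p 0.136) and IRF7 (highest adjusted p 0.111) were lost in the fit over all 8 groups, with the replicate number as a block and without TL-CDK8/19i replicate 2 or 3, that of OAS1 also with no filter on low counts, and that of IFI6 without TL-CDK8/19i replicate 2 (adjusted p = 0.0566).

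The 10 named genes with the largest fitted rise, among those with an average log2 CPM of at least 3, all had 0 counts in the 3 E-NHSM libraries. CPA4, a carboxypeptidase, was at 32, 69.1 and 40 CPM in TL-CDK8/19i (at least 920.4-fold higher), and MFAP5, of elastic microfibrils, at 29.7, 48.9 and 31 CPM (at least 714-fold). The other 8 were LGI1 (at least 684-fold), C1QTNF6 (at least 618-fold), SRPX2 (at least 598-fold), TBC1D9 (at least 594-fold), SLN, a regulator of the calcium pump of muscle (at least 524-fold), POF1B (at least 469.6-fold), UGGT2 (at least 435-fold) and the thyroid factor FOXE1 (at least 390.0-fold). In all, 187 tested genes were at 0 in every E-NHSM library, of which 28 had a mean of 10 CPM or more in TL-CDK8/19i and 100 a mean under 3 CPM, while 8 tested genes were at 0 in every TL-CDK8/19i library.

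Several abundant matrix genes, named after their values were seen, were also far higher, with at least 1 count in E-NHSM. FBN2, of extracellular microfibrils, was at 1057, 1544 and 1128 CPM against 0.74, 0.925 and 3.22 (log2 fold change 9.61 ± 0.32, adjusted p = 9.12e-11), COL8A1 at 628, 942 and 675 against 1.9, 0.816 and 1.43 (log2 fold change 9.07 ± 0.23, adjusted p = 1.52e-11), and the membrane protein EMP1 at 256, 398 and 365 against 0.462, 0.218 and 0 (log2 fold change 10.45 ± 0.32, adjusted p = 5.64e-11). SPP1, osteopontin, was at 2786, 2883 and 3671 CPM against 71.9, 62.6 and 70.2 (log2 fold change 5.53 ± 0.12, adjusted p = 7.80e-12), and for it the primed libraries, at 1286 to 2742 CPM, were well above E-NHSM.

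Among the 10 named genes with the largest fall, EBF2, a transcription factor of mesodermal and neural cells, was at 0.555, 0 and 0.0928 CPM in TL-CDK8/19i and 56.6, 57.3 and 59.5 in E-NHSM (log2 fold change -8.05 ± 0.36, adjusted p = 1.35e-09). The primed libraries, at 0 to 6.52 CPM, lay well under E-NHSM. AP1M2, an adaptor that sorts proteins in epithelial cells, was at 0.555, 0.429 and 0.464 CPM against 46.2, 43.2 and 44.1 (log2 fold change -6.49 ± 0.24, adjusted p = 1.95e-10). MYB, a factor of progenitor cells, was at 2.33, 0.643 and 0.371 CPM against 25.5, 24.7 and 35.3 (log2 fold change -4.69 ± 0.42, adjusted p = 8.03e-07). The others were ZNF615 (-5.82 ± 0.39), DRD3 (-5.61 ± 0.43), CUZD1 (-4.96 ± 0.29), ZNF296 (-4.78 ± 0.24), RGL3 (-4.73 ± 0.32), CBLC (-4.54 ± 0.54) and GADD45G, given above. CTSC, the lysosomal protease cathepsin C, was named after its values were seen, with 25, 20.6 and 27.6 CPM against 440.1, 459 and 485 (log2 fold change -4.22 ± 0.11, adjusted p = 1.90e-11) and a primed range of 366 to 491 CPM that overlapped with E-NHSM.

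The means of both protocols were also set against the range of the primed libraries. Over all 13651 tested genes, the TL-CDK8/19i mean alone lay outside that range for 29.4%, the E-NHSM mean alone for 14.8%, and the means lay on opposite sides of it for 11.3%. Of 2445 genes at least 2-fold higher in TL-CDK8/19i, 49.3% had a TL-CDK8/19i mean outside the primed range with the E-NHSM mean inside it, 9.04% the reverse, and 28.1% had the 2 means on opposite sides of the primed range. Of 1364 genes at least 2-fold lower, the shares were 26%, 29.2% and 27.5% in the same order. These shares are descriptions, and the primed libraries took no part in the test.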

How the data were processed

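RNA of 27 samples of 1 rhesus ESC line was made into directional mRNA libraries and sequenced as single reads on a NextSeq500. For each library the authors deposited counts per gene symbol, assumed here to be raw read counts. Whether they had been altered before deposit was not tested. The submitters' processing notes name bcl2fastq, cutadapt, HISAT2 and HTSeq. Versions, genome build and annotation are not given in the sources used here, so no coordinates or sequences are printed, and near-identical or overlapping genes may share reads. No column was left over.

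The 3 TL-CDK8/19i libraries were compared with the 3 E-NHSM libraries in R 4.3.3 with edgeR 4.0.16 (filterByExpr by group, TMM factors, glmQLFit and glmQLFTest, with limma 3.58.1), two-sided, with Benjamini-Hochberg adjustment over all 13651 genes tested of 17967 and a threshold of 0.05. The script was tested on simulated data with known changes. Folds come from that 6-library fit. Printed CPM use TMM factors set over these 6 and the 6 primed libraries together, so a ratio of printed CPM can differ slightly from the fold. For a gene at 0 counts in a whole group, a floor of 3 counts over the group gives the bound, and for 1 to 3 counts a ratio is given with a 95% exact binomial interval. Both cover counting error only, since reads carry no molecular identifiers.

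Named genes are the factors the study itself names, the 10 largest rises and 10 largest falls among called genes with an average log2 CPM of at least 3 and no overlap between groups, and in each of 40 gene lists up to 4 called members with the largest fold plus members that describe the list. The lists hold 824 symbols, of which 784 were found and 714 tested. Some genes that the rule selects are not reported here. The comparison, the lists and their members were chosen with earlier results of these data known.

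Alternatives were upper-quartile scaling, DESeq2 1.42.0 size factors, the DESeq2 Wald test, 2 other filters on low counts, a 2-fold limit, a fit over all 8 groups, the replicate number as a block, thinning of E-NHSM and leaving out each library. The 2-fold limit together with 10 counts in every library was added after the data were seen.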

Additional observations from a re-analysis of the deposited data

Results flagged for a closer look

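FOXE1, a gene with 0 counts in all E-NHSM libraries, had 1 primed library far from the other 5, at 11.7 CPM with the next at 4.45 CPM, a gap of 0.698 of the whole range over the 6 libraries, above the Dixon limit at 95%. Primed levels of 24 genes were checked in this way and 1 stood out, where chance gives about 1 in 20. The primed columns carry the letters J and K, whose meaning no label gives. Here and in every primed range the 6 were treated as 1 set. For some genes the letters differed, as for CDH1, at 79.3, 106 and 97 CPM in J and 29.8, 44.6 and 50.5 CPM in K.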

How the results depend on the processing

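The direction of no called gene was reversed with a call under any alternative. Of 750 genes of the lists and named genes, 586 were called, and 499 of these were called under every alternative apart from the 2-fold limit. That limit by construction left 3809 genes, 2445 higher and 1364 lower, and together with at least 10 counts in every library 2870, 1802 higher and 1068 lower. The other counts stayed within 1.5 times: 8302 called with upper-quartile scaling (3811 higher and 4491 lower, with 45.9% of calls higher against 51.5%), 8102 with DESeq2 size factors, 8014 with the DESeq2 Wald test, 8362 with no filter, 7335 with at least 10 counts in every library, 7390 with all 8 groups and 8096 with thinned E-NHSM. Leaving out 1 library gave 7080 to 7990 called, 3697 to 4167 higher and 3383 to 3823 lower. The median of the naive-state list was 1.47 and reversed to -1.35 with no filter, where low genes enter. Without TL-CDK8/19i replicate 1 the list medians of mesoderm and trophoblast genes were 6.06 and 3.91.

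Replicate numbers did not pair the libraries, since deviations of same-numbered libraries correlated at 0.0034, 0.0021 and -0.0071. With the replicate number as a block, 7860 genes were called, 4074 higher and 3786 lower. The unequal depth and the scarcity of low counts in E-NHSM and in the primed libraries limit what can be said of genes near 0. With E-NHSM thinned, 7908 of the 8055 calls still tested were kept, and 32 of 40 list medians moved by at most 0.1 on the log2 scale. With 10 counts in every library 21 of 39 did. Among lists whose median moved further, it became -0.74 for core pluripotency and 1.36 for naive-state factors. It became 1.62 for neural genes, 1.72 for the receptors and partners of collagens and 0.38 for imprinted genes. The other values stand beside their lists.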

Other observations

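Ribosomal protein genes, chosen after their values were seen, were lower in TL-CDK8/19i almost throughout. Of 76 tested genes 71 were called lower and 1 higher, with a median log2 fold change of -0.96 and a range of -2.57 to 0.92, where 29% of all tested genes were called lower. Among abundant transcripts with a fall that no list holds, also chosen after their values were seen, the Wnt receptor FZD5 differed by -2.94 ± 0.17, the RNA-binding protein gene SSB by -2.40 ± 0.11, the interleukin receptor gene IL13RA1 by -2.24 ± 0.11, the phosphatase PTPRK by -2.11 ± 0.10 and the chromatin protein gene PSIP1 by -1.88 ± 0.068 on the log2 scale. Among those with a rise, the kinase gene ALPK2 (8.60 ± 0.27), the matrix gene SVEP1 (7.68 ± 0.25) and DPYSL3, of growing axons (4.78 ± 0.15), were not members of a list either.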
